A study of Mus musculus with 44 samples.

Results

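The genes described here encode subunits of the GABA-A receptor, and they are Gabra2, Gabra3, Gabra4, Gabra5, Gabrb1, Gabrb2 and Gabrd. They are 7 of the 19 GABA-A receptor subunit genes among the 55335 rows of the count table. They were chosen by symbol with earlier results of these libraries known, and above all with the differences between exercised and sedentary mice of the simultaneous isolation in view. Values of that comparison are therefore given as a description with no test. All 7 passed the filter on low counts in every comparison, with between 192 and 18236 counts per library.

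The libraries were TRAP-seq libraries from hippocampi of male Emx1-NuTRAP mice. In these mice an Emx1-driven Cre recombinase switches on labels of the ribosome and of the nuclear envelope, so that ribosome-bound mRNA can be pulled down from cells of the Emx1 lineage. These are mostly excitatory neurons, with progenitors and some astrocytes among them. All mice carried this genotype and were pair-housed from weaning. Mice of the early-life exercise (ELE) groups could run freely on a wheel in their cage between postnatal days 21 and 41. The cages of sedentary mice had no wheel. Tissue was taken the day after wheel access ended. In the simultaneous isolation (SIT), both hippocampi of a mouse were pooled and split by protocol into nuclei and ribosome-bound RNA, and 4 ELE and 4 sedentary libraries were made. In the separate isolation, RNA came from 1 hippocampus of each mouse, with 3 ELE and 3 sedentary mice on the left and as many on the right. Each of the 20 libraries was thus 1 mouse, and left and right libraries came from different mice. Libraries are named below by their mouse number, whose first part (NT6, NT7.2, TG7.3, TG7.4, TG9.1, TG9.2) is called the prefix. What the prefix stands for is not stated in the labels.

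GABA-A receptors are the ligand-gated chloride channels through which the transmitter GABA inhibits neurons. Each channel is a ring of subunits, usually alpha and beta subunits with a gamma or a delta subunit. GABA binds where an alpha subunit meets a beta subunit, and the alpha subunit shapes where the channel sits and how drugs act on it. Channels with the delta subunit lie outside synapses and carry a steady, tonic current, and in the hippocampus those with the alpha5 subunit do so too.

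The members other than Gabrd lie in several clusters of subunit genes. Gabra2, an alpha subunit found at synapses and on the initial segment of pyramidal cell axons, spans chr5:70957597-71095849 on the minus strand of GRCm38. Its neighbours on chromosome 5 are Gabrg1, 115.0 kb away, Gabra4, 473.9 kb away, and Gabrb1. Gabra4 (chr5:71569749-71658308, minus strand) and Gabrb1 (chr5:71658113-72149037, plus strand) start head to head and overlap by 196 bp, of which 46 bp are exonic in both. The authors counted with strand, which keeps the pair apart. Gabra5 (chr7:57407672-57510059, minus strand), Gabra3 (chrX:72432681-72656848, minus strand), Gabrb2 (chr11:42419757-42629028, plus strand) and Gabrd (chr4:155384980-155398112, minus strand) lie on other chromosomes.

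The 250 bases upstream of the annotated start are shown for Gabra2, whose level varied widely between libraries, for its neighbour Gabra4, whose level hardly varied, and for Gabra5, the most abundant member. They are RefSeq sequences on GRCm38.p6, read 5′ to 3′ on the strand of the gene, and capitals mark the GC box GGGCGG on either strand.
Gabra2, chr5:71095850-71096099: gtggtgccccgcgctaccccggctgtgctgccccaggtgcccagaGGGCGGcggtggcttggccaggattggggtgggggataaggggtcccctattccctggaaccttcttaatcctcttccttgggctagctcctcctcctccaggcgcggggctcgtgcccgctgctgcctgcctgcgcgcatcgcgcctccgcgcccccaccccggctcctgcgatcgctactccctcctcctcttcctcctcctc
Gabra4, chr5:71658309-71658558: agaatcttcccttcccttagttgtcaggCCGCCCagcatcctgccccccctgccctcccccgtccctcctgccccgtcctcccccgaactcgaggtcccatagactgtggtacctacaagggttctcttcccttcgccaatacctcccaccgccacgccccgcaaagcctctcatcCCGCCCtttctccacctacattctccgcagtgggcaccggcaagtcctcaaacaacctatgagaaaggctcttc
Gabra5, chr7:57510060-57510309: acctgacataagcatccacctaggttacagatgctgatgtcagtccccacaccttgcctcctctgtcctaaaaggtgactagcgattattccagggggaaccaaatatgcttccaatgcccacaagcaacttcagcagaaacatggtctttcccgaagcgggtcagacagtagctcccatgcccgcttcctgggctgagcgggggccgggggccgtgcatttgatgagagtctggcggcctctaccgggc
The Gabra2 window was 70% G and C with 1 GC box, the Gabra4 window 61.2% with 2, and the Gabra5 window 56.4% with none. The median of all 32851 promoter windows of this length was 52.4%, and 32.7% of them held a GC box. Promoter entries were found for 6 of the 7 members, Gabrd being the exception, in 10 windows. Among the other motifs searched on both strands, none of the 10 held the cyclic AMP response element TGACGTCA, its core TGACG or the EGR site GCGTGGGCG. These letters occurred in 1.55%, 17.8% and 0.536% of all windows. The core lies within the full element, so their matches overlap. The E-box CANNTG, present in 66.2% of all windows, occurred once upstream of Gabra2 and at 2 places upstream of Gabra5. A TATA box, TATAAA, was in 12.4% of all windows and in none of the 3 shown. These are matches of letters, not measured sites.

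Total counts were between 45895097 and 65767802 per library. Levels are given as CPM, the counts of a gene scaled to a common library total with TMM factors. Exercise in SIT was compared over 5 libraries, ELE mice NT6.303, TG7.4.1 and TG7.4.2 and sedentary mice NT6.305 and NT6.306. These are the mice that the study compared. The study left out NT6.304 (ELE), NT7.2.3 and NT7.2.4 (both sedentary). The last 2 stood apart. Mitochondrial genes took 8.64% and 9.64% of their counts, against 0.0704% to 0.523% in the other 18. The summed level of 7 inhibitory interneuron markers was 844 and 883 CPM in them, against 40.9 to 109 elsewhere. Excitatory neuron markers, 5 of 5 detected, summed to between 10067 and 13938 CPM in every library. NT6.304 had the highest sum of 6 striatal neuron markers, 136 CPM against 57.7 to 82.6 in the others. Results are given with and without these 3 libraries. In such bulk libraries, fewer cells of a type and less RNA per cell cannot be told apart. Exercise and prefix were partly confounded in SIT, where both TG7.4 mice were exercised and both NT7.2 mice were sedentary, while the prefixes of the separate isolation were spread evenly over exercise and side.

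Levels of the 7 genes covered a wide range. Different genes are compared per kilobase of exonic length. Gabra5 was the most abundant member, at 88.4 ± 15.7 CPM per kb (SD, n = 20), and lay above every value of the next member in all 20 libraries. Gabra4 followed at 20.5 ± 2.06, then Gabra2 at 16.6 ± 7.26, Gabrb1 at 13.5 ± 2.05, Gabrb2 at 10.6 ± 1.70, Gabra3 at 8.34 ± 3.37 and Gabrd at 4.71 ± 1.63 CPM per kb. Gabra4 was above Gabra2 in 17 of 20 libraries, Gabra2 above Gabrb1 in 11, Gabrb1 above Gabrb2 in 20, Gabrb2 above Gabra3 in 15 and Gabra3 above Gabrd in 18. The order of Gabra2 and Gabrb1 thus did not exceed the spread between libraries. Of the 12 subunit genes outside the 7, Gabra6, Gabrp, Gabre, Gabrr1, Gabrr2 and Gabrr3 stayed under 1 CPM in every library.

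**Figure D1:**
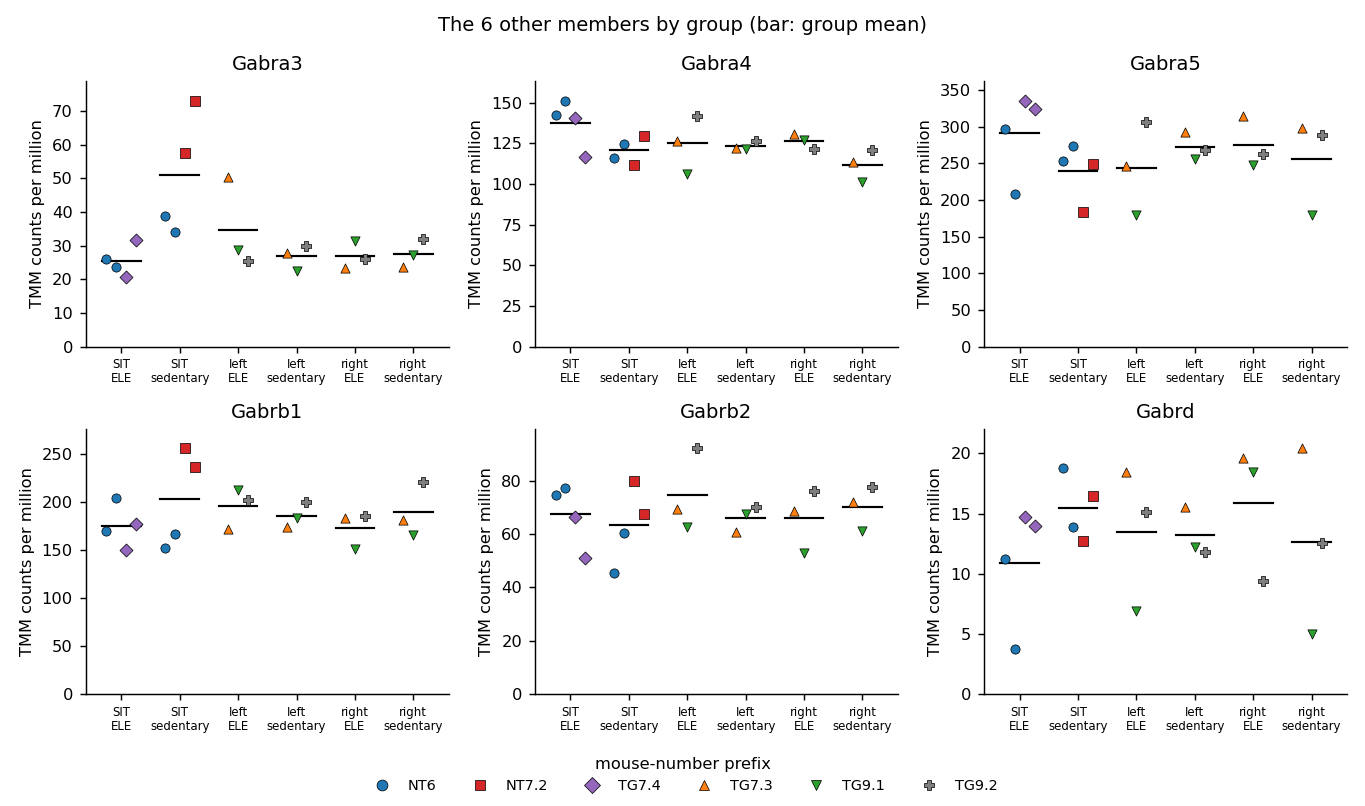
TMM-normalized CPM of Gabra3, Gabra4, Gabra5, Gabrb1, Gabrb2 and Gabrd in the 20 libraries by group, 1 panel per gene with an axis starting at 0; each point is 1 mouse, its marker gives the mouse-number prefix and the bar is the group mean. Gabra4 stays between 101 and 151 CPM, while Gabra3 runs from 20.7 to 73.1 and Gabrd from 3.73 to 20.4.

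The level of Gabra2 differed widely between mice of the same group. Gabra2 was chosen with its high and low libraries in view, so its rank among genes is a description. Its SD within groups was 0.47 on the log2 scale over the 20 libraries, higher than in 95.9% of the 11183 genes over 5 CPM, whose median SD was 0.20. Without the 3 libraries that the study left out, the percentile was 97.3. In the SIT ELE libraries, Gabra2 was at 108 CPM in NT6.303, 113 in NT6.304, 173 in TG7.4.1 and 137 in TG7.4.2. In the SIT sedentary libraries it was at 146 in NT6.305, 129 in NT6.306, 129.9 in NT7.2.3 and 318 in NT7.2.4. The last value was the highest of all 20 libraries, and NT7.2.3, which shared the high mitochondrial and interneuron counts, did not share it.

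In the left hippocampus the ELE libraries held 187 CPM of Gabra2 in TG7.3.2, 88.2 in TG9.1.4 and 86.3 in TG9.2.2, and the sedentary libraries 98.1 in TG7.3.4, 101 in TG9.1.2 and 100.5 in TG9.2.4. In the right hippocampus the ELE libraries held 173 in TG7.3.1, 97.5 in TG9.1.3 and 70.6 in TG9.2.1, and the sedentary libraries 90.2 in TG7.3.3, 85.6 in TG9.1.1 and 100.3 in TG9.2.3. On each side 1 ELE mouse stood far above the rest, and both of these mice had the prefix TG7.3. The other 4 ELE mice lay between 70.6 and 97.5 CPM, within or below the range of the 6 sedentary mice from 85.6 to 101 CPM. The ELE and sedentary groups overlapped on both sides when all ELE mice were counted. The sedentary groups were tight, at 99.9 ± 1.61 CPM (SD, n = 3) on the left and 92.0 ± 7.52 on the right, beside 120 ± 57.4 and 114 ± 53.1 in the ELE groups. The 3 highest libraries outside the 2 NT7.2 mice were exercised mice, TG7.3.2, TG7.3.1 and TG7.4.1.

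Gabra2 also moved with markers of cell types. Over the 20 libraries its log2 level had a Pearson r of 0.59 with the sum of 7 interneuron markers, -0.55 with that of 4 CA3 pyramidal markers, 0.52 with that of 4 microglia markers and 0.50 with that of 4 choroid plexus markers. Over the 17 libraries the r was 0.46 with interneuron, -0.33 with CA3, 0.022 with microglia and 0.42 with choroid plexus markers, and it was furthest from 0 with the sums of 4 CA1 pyramidal markers (-0.59) and 4 astrocyte markers (-0.57). As deviations from group means over the 20 libraries, the r was -0.46 with CA3, 0.43 with choroid plexus, 0.33 with interneuron, -0.19 with astrocyte and -0.093 with CA1 markers. Points share a library, and the part of these cells in the Gabra2 levels was not tested.

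**Figure D2:**
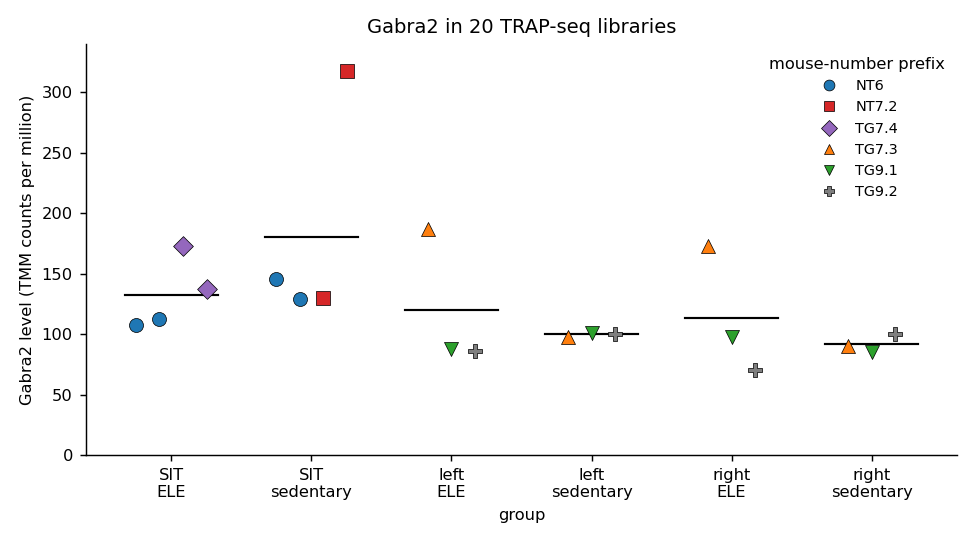
TMM-normalized CPM of Gabra2 in each of the 20 libraries by isolation, hemisphere and exercise; each point is 1 mouse, its marker gives the mouse-number prefix, the bar is the group mean and the axis starts at 0. The highest value is 318 CPM in the SIT sedentary mouse NT7.2.4, and on each side of the separate isolation the TG7.3 ELE mouse, at 187 and 173 CPM, stands above the others.

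Whether exercise changed the level of the 7 genes in the separately isolated hippocampi was tested with edgeR's quasi-likelihood test on each side. A gene was called at an unadjusted p under 0.05 with an absolute log2 fold change above 0.39, the study's threshold. None of the 7 was called on the left, where 2.07% of 17750 genes tested were, and none on the right, where 1.97% of 17570 were. None had an unadjusted p under 0.05 on either side, and DESeq2 called none either. The log2 difference of Gabra2, ELE minus sedentary, was 0.27 ± 0.27 (SE) on the left with an adjusted p of 0.960 by edgeR, and 0.31 ± 0.26 on the right with an adjusted p of 1.0. Both differences turned negative without the TG7.3 ELE mouse, to -0.20 without TG7.3.2 (adjusted p = 0.643 by edgeR) and -0.13 without TG7.3.1 (adjusted p = 1.0). Without TG9.2.1, the lowest right ELE mouse, the right difference was 0.55 and met the threshold for a call (adjusted p = 1.0 by edgeR). Since Gabra2 was chosen with its high and low libraries in view, these fits without single libraries are a description.

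Each ELE mouse was also set against the sedentary mouse of the same prefix and side. Within TG7.3 the ELE mouse had 1.90 times the Gabra2 level of the sedentary mouse on the left and 1.92 times on the right. Within TG9.1 the ratios were 0.872 and 1.14, and within TG9.2 they were 0.858 and 0.704. The ELE mouse was higher in 3 of 6 pairs. The corresponding ratio of the 2 ELE to the 2 sedentary NT6 mice of the SIT was 0.802. With the prefix as a covariate in edgeR, the log2 difference over both sides was 0.19 ± 0.17 (adjusted p = 0.888).

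**Figure D3:**
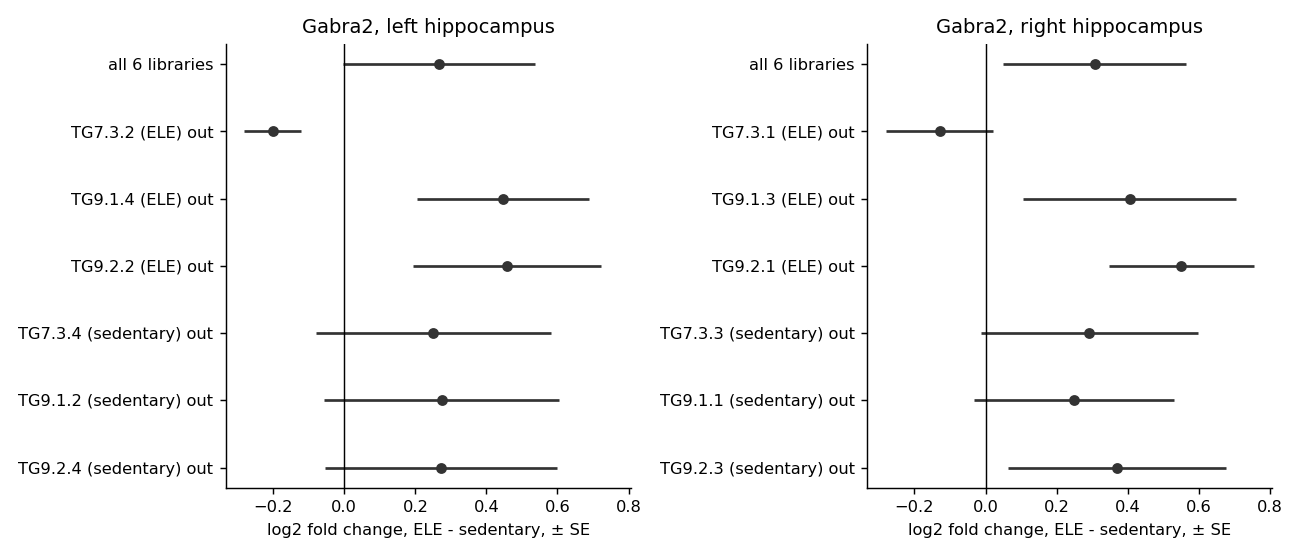
Log2 fold change of Gabra2, ELE minus sedentary, by edgeR in the left and the right hippocampus, with all 6 libraries and with each library left out in turn; each point is 1 fit, bars are ± 1 SE and the vertical line marks 0. Without TG7.3.2 the left value is -0.20, without TG7.3.1 the right value is -0.13, and the other fits lie above 0.

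In the SIT libraries the Gabra2 means were 139 ± 32.7 CPM in the 3 ELE mice compared and 137 ± 11.8 in the 2 sedentary mice, a log2 difference of 0.017 ± 0.17 (SE). The difference lay between -0.17 without TG7.4.1 and 0.17 without NT6.303. Over all 8 libraries it was -0.44 ± 0.29, with NT7.2.4 in the sedentary group, and within the NT6 mice alone it was -0.32 ± 0.13. The direction of the Gabra2 difference in SIT therefore depended on which mice were compared.

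Gabra3 encodes an alpha subunit best known from cortex and thalamus. In the SIT ELE libraries it was at 26.1 CPM in NT6.303, 23.7 in NT6.304, 20.7 in TG7.4.1 and 31.6 in TG7.4.2. In the SIT sedentary libraries it was at 39.0 in NT6.305, 34.2 in NT6.306, 57.6 in NT7.2.3 and 73.1 in NT7.2.4. Every sedentary mouse lay above every ELE mouse. The share of all genes with groups apart in this way was not counted, and nothing is read from it. The log2 difference was -0.49 ± 0.18 (SE) over the 5 libraries compared and -0.98 ± 0.24 over all 8. It was -0.34 without TG7.4.1 and -0.39 without NT6.305. The threshold for calls was met by 1 of the 7, Gabra3, in a comparison where 3.65% of 18238 genes met it, and over all 8 libraries again by Gabra3, where 7.7% of 17531 genes did. This comparison was in view when the genes were chosen, and nothing is read from these counts.

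The lower Gabra3 level of ELE mice in SIT was not seen in the separate isolation. On the left Gabra3 was at 50.4 CPM in the ELE mouse TG7.3.2 and between 22.5 and 30.1 in the other 5 mice, and on the right it was between 23.5 and 32.0 in all 6. The log2 difference was 0.37 ± 0.25 on the left (adjusted p = 0.960 by edgeR) and -0.035 ± 0.15 on the right (adjusted p = 1.0). The left value was -0.00014 without TG7.3.2, and without TG9.2.2 it was 0.56 and met the threshold (adjusted p = 0.730). TG7.3.2 was thus high for both Gabra2 and Gabra3, while the right ELE mouse TG7.3.1 was high for Gabra2 alone of these, with 23.5 CPM of Gabra3. Whether the SIT difference itself differed from those of the separate isolation was not tested. Gabra3 moved with markers of other cells across the 20 libraries. As deviations from group means, its log2 level had a Pearson r of -0.79 with the sum of 5 dentate granule markers, -0.67 with that of 4 CA3 pyramidal markers, 0.61 with that of 4 microglia markers, -0.56 with that of 5 excitatory neuron markers and 0.53 with that of 7 interneuron markers. Over the 17 libraries without the 3 left out, the r of the levels themselves was -0.57 with dentate granule, -0.50 with CA3, 0.32 with microglia, -0.50 with excitatory neuron and -0.052 with interneuron markers. The dentate sum was between 477 and 637 CPM in SIT ELE and between 339.8 and 547 in SIT sedentary libraries. In the 5 SIT libraries compared, 3 of 5 dentate granule markers were past the threshold and higher in ELE, and 3 of 4 choroid plexus markers were past it and lower. The part of these cells in the Gabra3 values was not tested.

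The other alpha subunits differed in steadiness. Gabra4, which pairs with the delta subunit in dentate granule cells, was the steadiest member, with an SD within groups of 0.13 on the log2 scale, above 16.0% of genes, and above 34.4% over the 17 libraries without the 3 left out. It ran from 101 CPM in TG9.1.1 to 151 in NT6.304. It was higher in the ELE mouse in 5 of 6 pairs of the same prefix and side, with a log2 difference of 0.017 ± 0.11 on the left and 0.18 ± 0.092 on the right (adjusted p = 0.992 and 1.0 by edgeR). Gabra5 was between 179 and 335 CPM, and its 3 lowest libraries were TG9.1.4, TG9.1.1 and NT7.2.3. Its log2 difference was -0.16 ± 0.17 on the left (adjusted p = 0.960) and 0.11 ± 0.18 on the right (adjusted p = 1.0). The left value was 0.017 without TG9.1.4 and -0.36 without TG9.2.2. The right value was -0.098 without TG9.1.1 and 0.23 without TG7.3.3. In SIT Gabra5 was at 296, 335 and 324 CPM in the ELE mice compared and at 253 and 274 in the sedentary mice. The log2 difference was 0.27 ± 0.094. The left-out ELE mouse NT6.304 was at 208 CPM of Gabra5, below these 5, and over all 8 libraries the groups overlapped. Within the NT6 mice the difference was -0.062. For Gabra4 the SIT difference was 0.14 ± 0.11, and 0.29 within the NT6 mice.

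Gabrd, the delta subunit of tonic, extrasynaptic receptors, had the widest spread. Its SD within groups was 0.66 on the log2 scale, above 98.2% of genes, and above 99.1% over the 17 libraries. In the SIT ELE libraries it was at 11.2 CPM in NT6.303, 3.73 in NT6.304, 14.7 in TG7.4.1 and 14.0 in TG7.4.2, and in the sedentary libraries at 18.8, 13.9, 12.7 and 16.5 in NT6.305, NT6.306, NT7.2.3 and NT7.2.4. On the left it was at 18.5, 6.90 and 15.1 in the ELE mice TG7.3.2, TG9.1.4 and TG9.2.2, and at 15.6, 12.2 and 11.8 in the sedentary mice TG7.3.4, TG9.1.2 and TG9.2.4. On the right it was at 19.6, 18.5 and 9.40 in the ELE mice TG7.3.1, TG9.1.3 and TG9.2.1, and at 20.4, 5.02 and 12.6 in the sedentary mice TG7.3.3, TG9.1.1 and TG9.2.3. The low libraries NT6.304, TG9.1.1 and TG9.1.4 fell in both exercised and sedentary mice, and the groups overlapped on both sides. Within TG9.1 the ratio of ELE to sedentary mouse was 0.565 on the left and 3.68 on the right. The log2 difference was 0.029 ± 0.31 on the left (adjusted p = 0.996 by edgeR) and 0.33 ± 0.43 on the right (adjusted p = 1.0), and -0.30 ± 0.20 in SIT. The right value was -0.060 without TG9.1.1 and 0.85 without TG7.3.3. The SIT value was -0.060 without NT6.305, -0.50 without NT6.306 and -1.12 within the NT6 mice.

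Gabrd and Gabra5 went together. The Pearson r of their deviations from group means was 0.83 over the 20 libraries, the highest of the 21 pairs of members. Over the 17 libraries without the 3 left out, the r of the levels was 0.69 (rho 0.35), below the 0.72 of Gabra4 with Gabra5. Points share a library, and no p is given. NT6.304, TG9.1.1 and TG9.1.4 were low for both genes. In the same deviations Gabrd had an r of -0.76 and Gabra5 of -0.73 with the sum of 6 striatal neuron markers, and the r of the levels over the 17 libraries was -0.43 and -0.68. That sum was 136 CPM in NT6.304, 75.6 in TG9.1.1 and 82.6 in TG9.1.4, and its part in these levels was not tested.

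The beta subunits Gabrb1 and Gabrb2, which complete the GABA binding site, varied moderately. Gabrb1 was between 150.0 and 256 CPM, with NT7.2.3 and NT7.2.4 as its highest libraries at 256 and 237. Gabrb2 was between 45.4 and 92.1 CPM, lowest in the SIT sedentary mouse NT6.305 and highest in the left ELE mouse TG9.2.2. Their deviations had a Pearson r of 0.67 with each other over the 20 libraries. Log2 differences on the left were 0.073 ± 0.098 for Gabrb1 and 0.17 ± 0.14 for Gabrb2 (adjusted p = 0.966 and 0.960 by edgeR), and on the right -0.12 ± 0.12 and -0.091 ± 0.14 (adjusted p = 1.0 for both). The left value of Gabrb2 was -0.0029 without TG9.2.2 and 0.28 without TG9.1.4. That of Gabrb1 was 0.0070 without TG9.1.4 and 0.15 without TG7.3.2. On the right, Gabrb2 was at 0.043 without TG9.1.3 and Gabrb1 at 0.00075 without TG9.2.3. In SIT the differences were 0.053 ± 0.11 for Gabrb1 and 0.27 ± 0.18 for Gabrb2. The SIT value of Gabrb1 was -0.20 with all 8 libraries and 0.23 within the NT6 mice. The SIT value of Gabrb2 was 0.41 without TG7.4.2, 0.50 without NT6.306, 0.082 without NT6.305 and 0.52 within the NT6 mice.

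**Figure D4:**
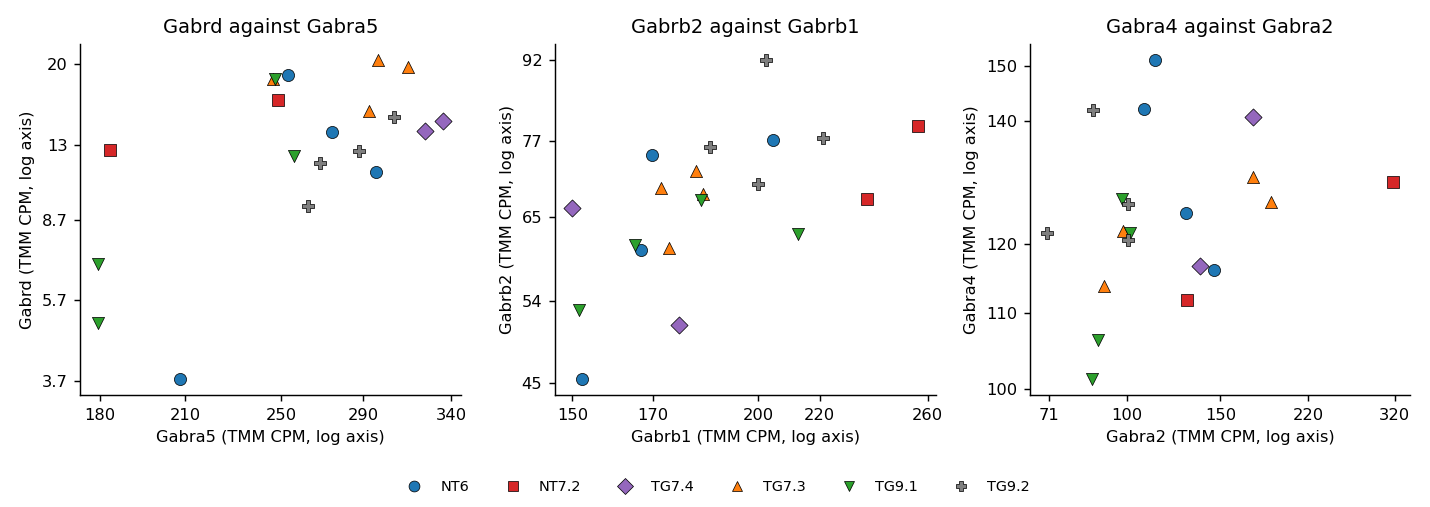
TMM-normalized CPM of 3 pairs of genes on log axes, Gabrd against Gabra5, Gabrb2 against Gabrb1 and Gabra4 against Gabra2; each point is 1 of the 20 libraries and its marker gives the mouse-number prefix. Both TG9.1 mice with about 179 CPM of Gabra5 and the NT6 mouse with 208 CPM are the lowest in Gabrd, while Gabra4 stays between 101 and 151 CPM over the whole range of Gabra2.

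Among the neighbours of Gabra2 on chromosome 5, Gabra4 showed a low correlation with it, and the values for Gabrb1 and Gabrg1 depended on the libraries taken. In NT7.2.4, with 318 CPM of Gabra2, Gabra4 was at 129.7 CPM, and in TG7.3.2 and TG7.3.1 it was at 126 and 131, close to its 20-library median of 123. Over the 20 libraries the Pearson r of log2 CPM with Gabra2 was 0.26 for Gabra4 (Spearman's rho 0.34), 0.087 for Gabrb1 (rho -0.062; -0.43 over the 17 libraries without the 3 left out) and 0.014 for Gabrg1 (rho 0.12). Gabrg1 was low, at 5.87 to 16.4 CPM, and over the 12 separate libraries its deviations from group means had an r of 0.62 with those of Gabra2. By Pearson r the highest value among the members was that of Gabra3, on another chromosome, with an r of 0.60 and rho of 0.32. It was 0.33 over the 17 libraries and 0.14 without NT7.2.4 and TG7.3.2, the 2 libraries farthest from the Gabra2 median. For Gabrd the r was 0.40 and the rho 0.42, higher than the rho of Gabra3, and the r was 0.53 over the 17 libraries and 0.35 without those 2. For Gabra5 the r was 0.16 (rho 0.14) and for Gabrb2 -0.19 (rho -0.18). Ranked by r among 19934 genes, Gabra3 stood at 417, Gabrd at 2751, Gabra4 at 5119, Gabrb1 at 8284 and Gabrg1 at 9692. The 5 genes most like Gabra2 over the 20 libraries were Gm2974 (r = 0.86), Ms4a6b (0.82), Gm3558 (0.81), Gm3411 (0.80) and Nrsn2 (0.80). The first 4 stayed under 4 CPM, and the Gm genes have near-identical copies that can share reads. Nrsn2, which encodes a neuronal vesicle protein, was between 32.3 and 79.0 CPM.

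Over both hemispheres of the separate isolation together, none of the 7 was called for exercise, where 2.27% of 18810 genes were, for hemisphere, where 1.43% were, or for their interaction, where 2.2% were. None had an unadjusted p under 0.05 in these 3 tests, and DESeq2 called none. The log2 difference of Gabra2 for exercise was 0.29 ± 0.21 (adjusted p = 0.943 by edgeR), and it dropped to 0.055 without TG7.3.2 and 0.068 without TG7.3.1. Those of the other 6 members lay between -0.027 (Gabra5) and 0.18 (Gabrd). Between left and right, positive for a higher left level, the Gabra2 difference was 0.098 ± 0.21. It was -0.13 without TG7.3.2 and 0.32 without TG7.3.1. With no library left out, the differences of the other members lay between -0.087 (Gabrd) and 0.16 (Gabra3). The largest member difference between sides was that of Gabra3, 0.16 ± 0.16, and it was -0.022 without TG7.3.2. The exercise difference on the left minus that on the right was -0.041 ± 0.43 for Gabra2 and 0.41 ± 0.31 for Gabra3 (adjusted p = 1.0 for both by edgeR). For Gabra2 it was -0.50 without TG7.3.2 and 0.39 without TG7.3.1, and for Gabra3 it was 0.039 without TG7.3.2.

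The isolation methods were compared over the 5 SIT libraries and the 12 separate libraries as an average over exercise groups and sides, and positive values mean a higher level in SIT. None of the 7 was called, where 14.7% of 20345 genes were, and DESeq2 called none. Gabra2 was 0.38 ± 0.18 higher in log2 (adjusted p = 0.155 by edgeR), Gabrb2 was at -0.25 ± 0.11 (adjusted p = 0.124) and Gabrb1 at -0.20 ± 0.077 (adjusted p = 0.0743). The last 2 had an unadjusted p under 0.05 but a difference below the threshold. Gabra2 met the threshold for a call without TG7.3.2 (0.50, adjusted p = 0.0191), without TG7.3.1 (0.49, adjusted p = 0.034) or without NT6.303 (0.46, adjusted p = 0.101). Since Gabra2 was chosen with its high and low libraries in view, its values in this comparison are a description and no independent test. In the comparison of 5 with 12 libraries, 5 of 7 interneuron markers were called higher in SIT (median log2 difference 0.80) and 4 of 4 astrocyte markers lower (-0.61). With all 8 SIT libraries, which include NT7.2.4 with 318 CPM of Gabra2, Gabra2 was also called (0.55 ± 0.19, adjusted p = 0.0579), beside 12.6% of 19935 genes. In that fit 7 of 7 interneuron markers (median log2 difference 2.50) and 4 of 4 microglia markers (2.52) were called higher in SIT and 4 of 4 astrocyte markers lower (-0.57). The part of these cells in the Gabra2 values was not tested. SIT used both hippocampi and separate isolation used 1, and their mice shared no prefix, so that isolation, tissue amount and prefix cannot be told apart.

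**Figure D5:**
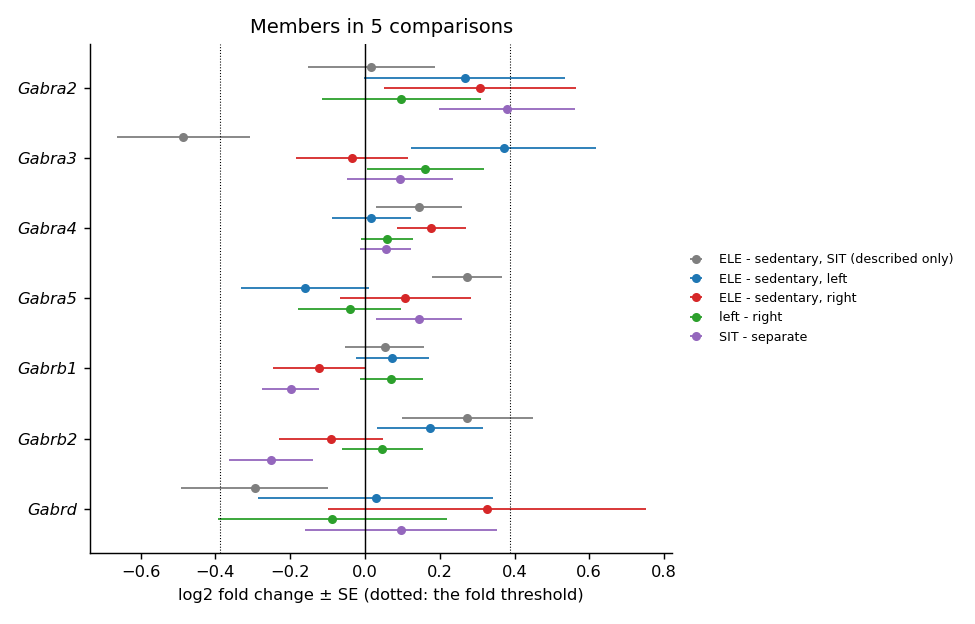
Log2 fold change of the 7 genes by edgeR for exercise in SIT, left and right (ELE minus sedentary), for hemisphere (left minus right) and for isolation (SIT minus separate); points are fits, bars are ± 1 SE and dotted lines mark the fold threshold of 0.39. Gabra3 in SIT, at -0.49, is the only point past a dotted line, and its comparison is shown as a description.

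The other genes of GABA signalling were counted by fixed lists. Of the 19 subunit genes, 15 were tested on the left and 14 on the right, and none was called on either side. With the prefix as a covariate Gabrg3, a gamma subunit, was called on the right (-0.40, adjusted p = 1.0 by edgeR). Without the covariate their median log2 difference was 0.045 and 0.016, beside 0.0035 and -0.0049 over all genes. In SIT, 15 were tested. Gabrr2, a rho subunit at 26, 6 and 17 counts in the ELE mice and 0 in both sedentary mice, was past the threshold together with Gabra3, in the comparison given as a description. In the interaction test Gabre was called on low counts, with at most 25 in any library. Of 13 genes for receptor clustering and trafficking, none was called for exercise in any comparison. Between isolation methods, Gabarapl1, a trafficking protein, was 0.54 ± 0.061 higher in SIT (adjusted p = 1.07e-05 by edgeR) and Iqsec3, a scaffold partner of inhibitory synapses, was lower (-1.15 ± 0.13, adjusted p = 9.28e-06). Gabrr2 was called lower in SIT, on the 0 counts of the 2 sedentary mice, and was not called with all 8 SIT libraries.

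Of 6 genes of the GABA-B receptor, the metabotropic GABA receptor, Kctd8 was called on the right (-0.90 ± 0.39, adjusted p = 1.0 by edgeR) and none was called on the left or in SIT. Between isolation methods Kctd12b was called, higher in SIT (0.54 ± 0.18, adjusted p = 0.044). Of 6 genes of GABA synthesis and transport, Slc32a1, the vesicular GABA transporter, was called on the right (1.15 ± 0.50, adjusted p = 1.0), and none on the left or in SIT. Between isolation methods, Gad2, a GABA-synthesizing enzyme (0.77 ± 0.28, adjusted p = 0.0571), and Slc32a1 (0.87 ± 0.36, adjusted p = 0.0994) were called higher in SIT. Slc6a11, a membrane GABA transporter, was called lower (-0.57 ± 0.098, adjusted p = 0.000477). In the same comparison 5 of 7 interneuron markers were called higher in SIT, Gad2 and Slc32a1 themselves among the 5, and 4 of 4 astrocyte markers lower. The part of these cells in these values was not tested. On the right, 4 of 4 choroid plexus markers were called, all lower in ELE (median log2 difference -2.44). Of the 7 interneuron markers, 6 were above 0 there (median 0.40), and the only 1 called was Slc32a1 itself. The part of these cells in the Kctd8 and Slc32a1 values was not tested. Neither of the 2 chloride cotransporters, Slc12a2 and Slc12a5, was called in these comparisons. Gad1, Gad2 and Slc32a1 are in both the list of synthesis and transport genes and that of interneuron markers. With all 8 SIT libraries, the NT7.2 mice included, 7.7% of genes were past the threshold. In that fit, 5 of the 6 genes of synthesis and transport and 7 of 7 interneuron markers were past it and lower in ELE. So were 4 of 4 microglia markers, 3 of 3 endothelial markers tested and 4 of 4 choroid plexus markers, and also Slc12a2 (-0.84 ± 0.30) and Gabrg1 (-0.67 ± 0.26). Over all genes, 0 passed an adjusted p of 0.05 by edgeR for exercise in SIT, on the left or on the right, where 1000, 699 and 488 genes had an unadjusted p under 0.05.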

How the data were processed

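TRAP-seq counts of 20 libraries were analysed. The authors aligned reads to GRCm38.p6 with STAR 2.7.3a, removed duplicates with Picard 1.87, summed strand-matched read pairs over the exons of a gene (GenomicAlignments), and deposited whole-number counts with no normalization. Total counts were 45895097 to 65767802 (median 54422374.5). Same-group libraries differed by more than counting error (chi-square per gene 20.2 to 463 over 24 pairs). Table columns carry mouse numbers. Their groups came from the study's sample list, checked on side with normalized means the study lists (548 of 548 left and 358 of 358 right genes matched), and the 5 SIT libraries compared were found the same way (633 of 633 genes among 24 subsets, within 0.001). A wild-type table of 24 columns whose names matched no sample was not used, nor were the authors' own comparison columns of fold changes and p-values.

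Ensembl identifiers were matched to GENCODE M21 symbols, 54587 with version and 55154 in all of 55335. Counts were scaled by TMM, filtered with filterByExpr and tested with edgeR 4.0.16 (R 4.3.3) by its quasi-likelihood test within the groups compared, with Benjamini-Hochberg adjustment over all genes tested. The standard error is the absolute log2 fold change divided by the square root of F. Correlations used log2 of TMM CPM plus 0.5. Alternatives were DESeq2 1.42.0, its size factors, no filter, a log2 threshold of 0.38, all 8 SIT libraries, the prefix as covariate, an additive model, each library left out and, added after seeing the data, the NT6 mice alone. The steps were tested on simulated data. Each library came from a separate mouse, and p-values measure the spread between mice.

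The members, the gene lists and the markers were chosen with earlier results of these data known. All members were tested in every comparison and described by value, range or count, other subunits and listed genes where called or needed to place a member, and for Gabra2 the 5 genes with the highest Pearson correlation. Some genes that this rule selects are not named here.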

Additional observations from a re-analysis of the deposited data

Results flagged for a closer look

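Gabra2 in the SIT sedentary mice stood out because 1 library, NT7.2.4, lay far from the other 3. It held 318 CPM, and the others held 129, 129.9 and 146 CPM. The gap to the nearest of them was 0.911 of the whole range of the group, above Dixon's 95% critical value for 4 libraries. Since Gabra2 was chosen for its high and low libraries, this is a description of the library and no independent test. It was the only one of 14 gene and group combinations of 4 libraries that exceeded it, and chance alone exceeds it in about 1 of 20 groups. NT7.2.4 is 1 of the 3 SIT libraries that the study left out, with 9.64% mitochondrial counts and an interneuron marker sum of 883 CPM. NT7.2.3 had 8.64% and 844 CPM with Gabra2 at 129.9 CPM. The part of these features in the Gabra2 level was not tested.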

How the results depend on the processing

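The number of the 7 genes called was 1 in SIT, a description since that comparison guided the choice of genes, and 0 in the other comparisons. The numbers were the same with DESeq2, median-of-ratios size factors, no filter on low counts and the lower fold threshold. Within the NT6 mice alone it was 2 in SIT, and with all 8 SIT libraries it was 1 for isolation method. With each library left out in turn it ran from 0 to 2 in SIT, from 0 to 1 on the left, from 0 to 1 on the right and from 0 to 1 for isolation method, and it was 0 throughout for exercise over both hemispheres, for hemisphere and for the interaction. No paired analysis was possible by the labels' replicate numbers because the columns do not carry them. Mice of the separate isolation were paired by prefix instead, and a fit with the prefix as a covariate gave 0 called members in each of the 5 comparisons of the separate isolation. The log2 fold changes of single members were set against the standard error of the main fit. Under the alternatives other than leaving out a library, 204 moved by less than it and 13 by more. With each library left out, 468 moved by less and 22 by more. No call turned its direction. Of the correlations with Gabra2, 14 moved by less than an approximate standard error of the r over the 20 libraries. By more moved 4, those with Gabra3 and with Gabrb1. Over all genes, leaving out the low-count filter raised the calls for exercise over both hemispheres from 427 to 1085, for hemisphere from 269 to 784, for the interaction from 414 to 1041, on the left from 367 to 691 and on the right from 347 to 715. DESeq2 called 441 for hemisphere and 552 on the left. SIT gave 1350 calls with all 8 libraries and 1179 within the NT6 mice, against 665. With 2 or 3 mice in a group, the precision was limited by the spread between mice and not by depth.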
